A study of Mus musculus with 12 samples.

Results

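The multidrug efflux ABC transporters are membrane pumps that use ATP to move drugs, conjugated metabolites and signaling lipids out of cells. Rows of the deposited expression table were taken by gene name for Abcc1, Abcc2, Abcc3, Abcc4, Abcc5, Abcg2, Abcb1a and Abcb1b, which gave 8 of 54532 genes, each listed once. They were followed in C2C12 cells, an immortalized mouse myoblast line, by sequencing of polyA-enriched RNA. The cells had been given 30 nM siRNA for 48 h, which was a control (siCONTROL), directed at Keap1 (siKEAP1), directed at Ccnf (siCCNF) or a mix directed at both (siKEAP1/siCCNF), with 3 biological replicates in each of the 4 groups. All groups were grown in the same serum-containing medium with no drug or oxidant named in the labels, and the depletions were partial and transient. The sources used here do not say which of several Ccnf siRNAs was sequenced, nor whether 30 nM was the dose of each siRNA or of their sum.

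Efflux pumps of the ABCC family, also called multidrug resistance proteins, export glutathione, glucuronide and sulfate conjugates, cyclic nucleotides or eicosanoids, while ABCG2 and the P-glycoproteins encoded by Abcb1a and Abcb1b export many unmodified drugs. KEAP1 is the substrate adaptor of a CUL3 ubiquitin ligase that marks the transcription factor NRF2 for degradation, and NRF2 acts with small MAF proteins at antioxidant response elements, several of which lie near genes of conjugation and efflux. CCNF, or cyclin F, is a substrate adaptor of a CUL1 ubiquitin ligase best known in the cell cycle. The study asked whether CCNF affects the differentiation of muscle cells by way of NRF2.

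The antioxidant response element core, TGACNNNGC, was searched for on both strands of RefSeq promoter windows (GRCm38.p6), which run from 250 bases before to 50 bases after a start site. It occurred in 12.4% of 32851 windows. Of the 8 transporters, 6 had at least 1 window, and Abcc1 and Abcc3 were not searched here. Abcc4, which had the largest change among the tested transporters with a window, held 1 match in each of its windows, and Abcb1b held none. Their upstream 250 bases are shown 5′ to 3′ on the strand of the gene, with the matches in capitals. The first, at chr14:118706220-118706469 on the minus strand, ends at the annotated start of Abcc4, and its match lies on the strand opposite to the gene, from base -25 to base -17. The second, at chr14:118676932-118677181, lies before a start site inside the gene and holds its match on the strand of the gene, from base -23 to base -15. The third, at chr5:8797897-8798146 on the plus strand, ends at the start of Abcb1b.
Abcc4, gene start: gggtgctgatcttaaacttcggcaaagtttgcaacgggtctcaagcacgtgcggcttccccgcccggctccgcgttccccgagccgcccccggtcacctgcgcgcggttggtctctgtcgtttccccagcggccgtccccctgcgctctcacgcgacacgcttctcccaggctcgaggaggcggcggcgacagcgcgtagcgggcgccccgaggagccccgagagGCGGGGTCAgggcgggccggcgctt
Abcc4, internal start: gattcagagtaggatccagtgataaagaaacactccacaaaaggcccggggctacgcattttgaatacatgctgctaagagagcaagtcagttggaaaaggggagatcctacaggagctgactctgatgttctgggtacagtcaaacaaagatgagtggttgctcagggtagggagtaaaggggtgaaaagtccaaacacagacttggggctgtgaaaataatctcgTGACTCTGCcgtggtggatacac
Abcb1b: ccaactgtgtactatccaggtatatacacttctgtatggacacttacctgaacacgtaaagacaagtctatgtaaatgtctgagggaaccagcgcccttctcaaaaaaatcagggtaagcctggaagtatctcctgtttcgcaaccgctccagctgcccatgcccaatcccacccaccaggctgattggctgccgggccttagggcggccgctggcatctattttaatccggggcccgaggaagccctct

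Among the other members, Abcc2 held 1 match from base -98 to base -90 and Abcb1a held 1 from base 27 to base 35 after a RefSeq start site that lies upstream of the start used in the table. The window of Abcc5 and the 3 windows of Abcg2 held none. The xenobiotic response element core, GCGTG, was present in 32.4% of all windows, 2 times in the gene-start window of Abcc4 and 1 time in 1 window of Abcg2, and overlapped none of the antioxidant response element matches. These matches describe the letters of the windows and are not measured binding sites.

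The 2 P-glycoprotein genes are neighbors on chromosome 5 of GRCm38, with Abcb1a at chr5:8660077-8748575 and Abcb1b at chr5:8798147-8866315, 49571 bases apart and both on the plus strand. Their coding sequences, read from the GENCODE transcripts, were each 3831 bases long and 88.1% identical over 3822 aligned bases. The longest stretch shared without a difference was 338 bases, and 20.3% of all 50-base windows of Abcb1b also occurred in Abcb1a. The border of this stretch is printed because reads that fall inside it belong to neither gene uniquely, with the first 120 shared bases in capitals after the preceding 30 bases.
Abcb1a, coding bases 1327 to 1476: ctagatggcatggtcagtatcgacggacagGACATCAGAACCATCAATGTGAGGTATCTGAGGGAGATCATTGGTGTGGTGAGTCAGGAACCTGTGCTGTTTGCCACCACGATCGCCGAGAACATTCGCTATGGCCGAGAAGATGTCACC
Abcb1b, coding bases 1336 to 1485: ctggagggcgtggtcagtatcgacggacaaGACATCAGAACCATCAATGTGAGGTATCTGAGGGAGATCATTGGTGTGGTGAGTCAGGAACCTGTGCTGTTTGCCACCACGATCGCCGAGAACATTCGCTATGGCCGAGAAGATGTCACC

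How such reads were assigned is not given in the sources used here, so the split of counts between Abcb1a and Abcb1b is uncertain. Exons of both genes also overlap a transcript on the opposite strand. Gm42686, which overlaps Abcb1a over 553 bases, had 0 counts, and Gm5106, which overlaps Abcb1b over 143 bases, had 28 counts in all 12 libraries against 9427 for Abcb1b.

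The libraries held between 18464209 and 37743198 counts. Keap1 was reduced to 14.4% of siCONTROL by siKEAP1 and to 27.5% by siKEAP1/siCCNF, and Ccnf to 25.3% by siCCNF and 30.2% by siKEAP1/siCCNF; Ccnf was at 73.2% after siKEAP1 alone. The 8 myoblast markers summed to 1820 to 1990 library-scaled read counts (CPM) in siCONTROL libraries and to 946 to 1210 in the depleted ones. The 12 myotube markers summed to 201 CPM in siCONTROL replicate 1, 87.5 to 89.6 in the other siCONTROL libraries, 7.01 to 7.85 after siKEAP1, 31.1 to 46.9 after siCCNF and 16 to 18.6 after both, with Ckm and Myh8 at 0 in every siKEAP1 library. Of 12 markers of other cell types, which summed to 1.08 to 2.01 CPM in siCONTROL, 6.73 to 11.6 after siKEAP1 and 2.08 to 4.04 in the remaining libraries, Alb was at 0 in all libraries. Cd68 made up most of the higher sum after siKEAP1, at 7.33 ± 2.37 CPM (SD, n = 3). In 2 libraries, siCONTROL replicate 1 and siKEAP1/siCCNF replicate 3, deviations from the group mean fell with gene length (r = -0.305 and -0.276 across 15122 genes). Their group partners had r of 0.152 to 0.206. All members are long genes, with summed exons of 5480 to 15092 bases, and several values are also given without these libraries. Their part in the results, and that of the marker changes, was not tested.

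In GRCm38, Abcc1 lies at chr16:14361558-14475737 and Abcc5 at chr16:20331303-20426394, Abcc2 at chr19:43782192-43840740, Abcc3 at chr11:94343295-94392997, Abcc4 at chr14:118482692-118706219 and Abcg2 at chr6:58584523-58695676. Of the 8 transporters, 6 had enough counts to be tested, and Abcc2 and Abcb1a did not. Levels between genes are compared as FPKM, which divides the counts by gene length. In siCONTROL cells, Abcc1 stood at 9.40 ± 2.07 FPKM (SD, n = 3), Abcg2 at 8.25 ± 0.447, Abcc5 at 8.12 ± 1.60 and Abcc4 at 7.04 ± 1.38, and neighbors in this order overlapped between libraries. Abcb1b followed at 2.82 ± 0.37 FPKM and Abcc3 at 0.174 ± 0.0517, without overlap, while Abcb1a at 0.00985 and Abcc2 at 0 were barely detected. After siKEAP1 the order was Abcc4 (29.5 ± 1.20 FPKM), Abcc5 (15.3 ± 0.19), Abcc1 (12.9 ± 0.213), Abcg2 (7.56 ± 0.308), Abcb1b (6.004 ± 0.335) and Abcc3 (4.24 ± 0.217), and no neighbors overlapped. After siCCNF, Abcc5 (14.1 ± 0.692 FPKM) and Abcc4 (13.5 ± 0.432) overlapped at the top, and Abcc1 at 12.4 ± 0.224, Abcg2 at 5.56 ± 0.167, Abcb1b at 3.01 ± 0.276 and Abcc3 at 0.300 ± 0.00975 followed without overlap. After both siRNAs, Abcc4 (16.8 ± 2.39 FPKM), Abcc5 (14.5 ± 1.45) and Abcc1 (13.5 ± 1.45) overlapped, above Abcg2 (5.80 ± 0.163), Abcb1b (3.64 ± 0.179) and Abcc3 (0.415 ± 0.0328).

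**Figure D1:**
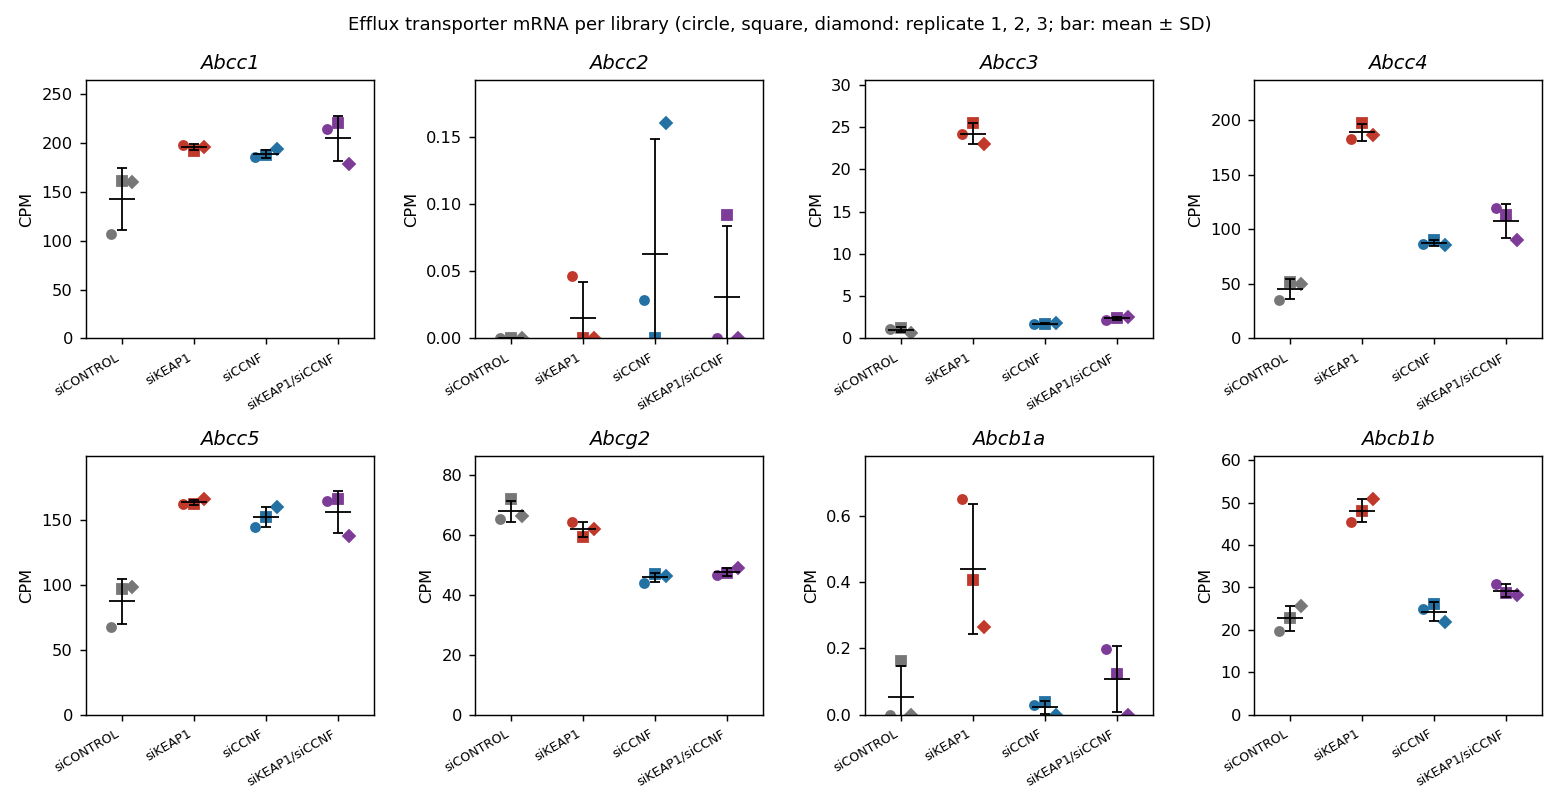
Level of each of the 8 transporters in CPM (linear axis from 0, 1 panel per gene) in the 12 libraries, with circles, squares and diamonds for replicates 1, 2 and 3 and black bars for the mean ± SD of 3 libraries. Abcc3, Abcc4 and Abcb1b were highest after siKEAP1, and Abcg2 was lower in the 2 groups with siCCNF. For Abcc1, Abcc4, Abcc5, Abcg2 and Abcb1b, siCONTROL replicate 1 was the lowest control library.

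KEAP1 depletion raised 5 of the 6 tested transporters and lowered none at an adjusted p under 0.05, where 20.4% of all genes tested were called higher and 20.2% lower. Of these, 3 rose more than 2-fold, a size reached by 7.59% of all genes tested. The median log2 fold change of the 6 was 0.995, against -0.012 for all genes. Tests were made with edgeR's quasi-likelihood test and Benjamini-Hochberg adjustment over 15122 genes. Since these are bulk RNA samples, a change in the share of cells of a type and a change in RNA per cell cannot be told apart. All 3 comparisons with siCONTROL use the same control libraries. Without the 2 length-trend libraries the log2 fold changes after siKEAP1 were 4.66 for Abcc3, 1.895 for Abcc4, 0.98 for Abcb1b, 0.74 for Abcc5 and 0.27 for Abcc1, and all were called.

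Abcc3, an exporter of glucuronides and bile acids on the basolateral side of epithelia, changed most. Its level was 1.08, 1.25 and 0.674 CPM in siCONTROL replicates 1, 2 and 3, and 24.1, 25.5 and 23.0 CPM after siKEAP1. It was 1.65, 1.75 and 1.77 CPM after siCCNF and 2.18, 2.40 and 2.55 CPM after both. No 2 groups overlapped, and siKEAP1 stood far above the other 3. The rise after siKEAP1 was 4.60 ± 0.162 on the log2 scale (24.3-fold, SE, adjusted p = 5.68e-10), and it was 0.79 ± 0.189 after siCCNF (adjusted p = 0.00377) and 1.25 ± 0.186 after both (adjusted p = 0.000115). The siCONTROL mean rested on 61 counts in all. On the log2(FPKM + 1) scale, which understates changes of low genes, the rise after siKEAP1 was 2.16, that after siCCNF 0.148 and that after both 0.27.

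Abcc4 exports cyclic nucleotides, prostaglandins and conjugated steroids. Its level was 35.1, 51.4 and 49.3 CPM in siCONTROL replicates 1, 2 and 3, and 182, 197 and 186.5 CPM after siKEAP1. It was 86.0, 90.4 and 85.05 CPM after siCCNF and 119.7, 113 and 90.05 CPM after both. Every depleted library lay above every control library, siKEAP1 lay above all others, and only siCCNF and siKEAP1/siCCNF overlapped, through replicate 3 of the latter. The log2 fold change was 2.06 ± 0.133 after siKEAP1 (4.17-fold, adjusted p = 8.59e-08), 0.95 ± 0.131 after siCCNF (adjusted p = 5.72e-05) and 1.25 ± 0.131 after both (adjusted p = 6e-06). The 2 windows of Abcc4, shown above, each hold an antioxidant response element core. Abcb1b and Abcc5, which also rose after siKEAP1, held none, and the barely detected Abcc2 and Abcb1a held 1 each. Whether the matches bear on these changes was not tested.

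Abcb1b, which encodes one of the mouse P-glycoproteins, stood at 19.7, 22.7 and 25.7 CPM in siCONTROL replicates 1, 2 and 3, and at 45.4, 48.0 and 50.8 CPM after siKEAP1. It stood at 24.9, 26.0 and 21.8 CPM after siCCNF and at 30.9, 28.75 and 28.1 CPM after both. The siCCNF libraries overlapped the controls, whereas those of the double depletion lay between siCCNF and siKEAP1 without overlap. Abcb1b rose 2.12-fold after siKEAP1 (log2 1.08 ± 0.101, adjusted p = 2.21e-06) with a log2 fold change of 0.37 ± 0.101 after both (adjusted p = 0.01). After siCCNF the difference was 0.095 ± 0.101 (adjusted p = 0.464, 95% interval -0.124 to 0.314). Adding the reads of Abcb1a and Abcb1b gave 1.09 after siKEAP1.

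Abcb1a, the second P-glycoprotein gene, had 0, 3 and 0 counts in siCONTROL replicates 1, 2 and 3, 14, 10 and 6 after siKEAP1, 1, 1 and 0 after siCCNF and 5, 4 and 0 after both. Each siKEAP1 library was above each control. The pooled rate after siKEAP1 was 8.91 times that in siCONTROL, with a 95% exact interval of 2.77 to 45.6 that covers counting error only, and the interval for both siRNAs, 0.573 to 13.2, included no change. In a fit with no filter on low counts, Abcb1a was called higher after siKEAP1 (log2 3.00, adjusted p = 0.0316 over 28084 genes), but at these control counts the fitted fold depends on the prior count and sets no bound. These counts are small beside those of Abcb1b, with which Abcb1a shares sequence. Abcc2, an apical exporter of conjugates in liver and kidney, had 0 counts in the 3 siCONTROL libraries, which allows up to 0.0487 CPM over the group at 3 counts. It had 1, 0 and 0 counts after siKEAP1, 1, 0 and 6 after siCCNF, and 0, 3 and 0 after both. The pooled siCCNF rate, with 6 of its 7 counts from replicate 3, was 1.46 times that of 3 counts in siCONTROL. This ratio leaves out the counting error of the 7 counts and sets no bound. In the edgeR fit with no filter, Abcc2 was not called after siCCNF (adjusted p = 0.227). Expression of Abcc2 was at the limit of detection in every group.

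Abcc5 exports cyclic nucleotides and antifolates, and its level was 67.5, 96.6 and 98.1 CPM in siCONTROL replicates 1, 2 and 3. It was 162.5, 162 and 166 CPM after siKEAP1, 144, 152 and 160.2 after siCCNF, and 165, 166 and 138 after both. All 3 depleted groups lay above the controls and near one another, with overlap between siKEAP1 and siKEAP1/siCCNF and between siCCNF and siKEAP1/siCCNF. The log2 fold change was 0.91 ± 0.121 after siKEAP1 (adjusted p = 5.53e-05), 0.80 ± 0.121 after siCCNF (adjusted p = 0.000122) and 0.84 ± 0.121 after both (adjusted p = 9.53e-05).

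Abcc1, which exports leukotriene C4 and glutathione conjugates, had smaller differences. Its level was 106, 161 and 161 CPM in siCONTROL replicates 1, 2 and 3, and 198, 192 and 196 CPM after siKEAP1. It was 186, 188 and 193.5 CPM after siCCNF and 215, 221 and 179 CPM after both. The depleted groups all lay above the controls and overlapped one another in part. The log2 fold change was 0.45 ± 0.13 after siKEAP1 (adjusted p = 0.0132), 0.41 ± 0.13 after siCCNF (adjusted p = 0.0205) and 0.52 ± 0.13 after both (adjusted p = 0.00538). Without siCONTROL replicate 1 these values were 0.27, 0.232 and 0.341 and were still called. The call for siCCNF was lost without siCCNF replicate 3 (adjusted p = 0.0585).

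Abcg2, also called breast cancer resistance protein, exports urate, porphyrins and many drugs, and moved the other way. Its level was 65.1, 71.8 and 66.3 CPM in siCONTROL replicates 1, 2 and 3, and 64.15, 59.2 and 61.9 CPM after siKEAP1. It was 44.0, 47.0 and 46.2 CPM after siCCNF and 46.5, 47.2 and 48.9 CPM after both. The groups with siCCNF lay below the other groups without overlap and overlapped each other. Abcg2 fell by 0.57 ± 0.0636 in log2 units after siCCNF (adjusted p = 9.59e-06) and by 0.51 ± 0.0637 after both (adjusted p = 2.74e-05). The siKEAP1 libraries also lay just below the controls, but the difference of -0.13 ± 0.0635 missed the threshold (adjusted p = 0.114, 95% interval -0.271 to 0.00386) and passed it without the 2 length-trend libraries (-0.172, adjusted p = 0.0214).

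Counted together, siCCNF changed 4 transporters upward and 1 downward, with 22.5% of all genes called higher and 25.5% lower, and none of these changes exceeded 2-fold, where 4.61% of all genes were higher and 6.76% lower by that much. The median log2 fold change of the 6 was 0.599, against 0.013 for all genes. The double depletion changed 5 upward and 1 downward, with 20.6% and 23.6% of all genes called higher and lower, and 2 of the rises exceeded 2-fold (4.73% of all genes). Its median was 0.68, against 0.014 for all genes. Among the 5603 tested genes of at least 5000 bases, to which all members belong, 23.2%, 26.8% and 21.8% were called higher after siKEAP1, siCCNF and both.

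**Figure D2:**
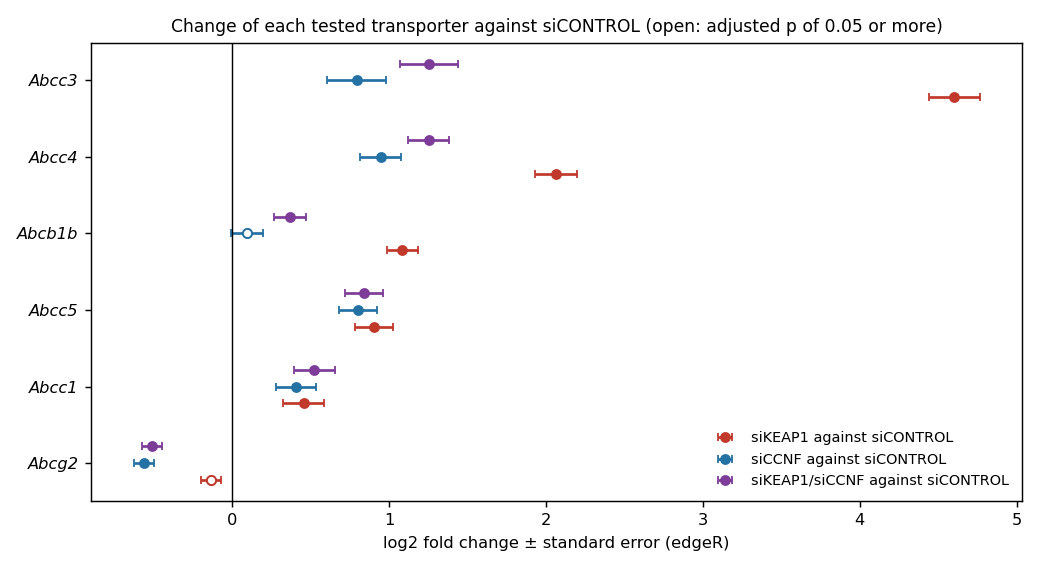
Log2 fold change against siCONTROL of the 6 tested transporters, with horizontal bars for the standard error from edgeR and 1 color per depletion; open points missed an adjusted p of 0.05. Abcc3 reached 4.60 after siKEAP1, Abcc1 lay between 0.41 and 0.52 and Abcc5 between 0.80 and 0.91 in all 3 comparisons, and Abcg2 was the one transporter below 0.

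Next, it was asked whether the effect of KEAP1 depletion on the pumps depended on CCNF. Compared with siKEAP1 alone, the double depletion lowered 4 of the 6 and raised none, where 26.9% of all genes were called lower and 24.1% higher. On the log2 scale, Abcc3 fell by 3.35 ± 0.14 (adjusted p = 2.05e-09), Abcc4 by 0.81 ± 0.127 (adjusted p = 0.000153), Abcb1b by 0.72 ± 0.0989 (adjusted p = 5.03e-05) and Abcg2 by 0.38 ± 0.0636 (adjusted p = 0.000268). Abcc3 alone exceeded 2-fold, as did 9.17% of all genes in this direction. Abcg2 had not been called after siKEAP1 (95% interval -0.271 to 0.00386) and fell by 0.57 after siCCNF alone. The reason for its fall here was not tested. Abcc1 (0.067 ± 0.129, 95% interval -0.213 to 0.347) and Abcc5 (-0.068 ± 0.119, 95% interval -0.326 to 0.190) were not called, and without the 2 length-trend libraries Abcc1 was called higher (0.162, adjusted p = 0.00146).

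The double depletion was then set against siCCNF alone, which gives the siKEAP1 effect where CCNF was also depleted. Both siRNAs were given as 1 mix, and residual Keap1 was 27.5% of siCONTROL there against 14.4% after siKEAP1 alone. None of the 6 passed the edgeR threshold, with 3% of all genes called higher and 2.19% lower. DESeq2 and limma also called 0. The largest differences were those of Abcc3 (0.46 ± 0.158, adjusted p = 0.125), Abcc4 (0.31 ± 0.127, adjusted p = 0.214) and Abcb1b (0.27 ± 0.0995, adjusted p = 0.154). Their unadjusted 95% intervals were 0.12 to 0.803, 0.0312 to 0.582 and 0.0563 to 0.487. The libraries of Abcc3 and Abcb1b did not overlap between these groups, but the share of all genes without overlap was not counted. Without the 2 length-trend libraries 3 were called, namely Abcc4 (0.414, adjusted p = 3.29e-05), Abcc1 (0.199, adjusted p = 0.00192) and Abcb1b (0.294, adjusted p = 0.0269). The share of all genes called in this refit was not counted for this comparison. After siKEAP1 the refit called 7559 of 15545 genes, against 3083 higher and 3050 lower of 15122 in the main fit. Abcc5 (0.037 ± 0.119, 95% interval -0.221 to 0.295) and Abcg2 (0.055 ± 0.0635, 95% interval -0.082 to 0.193) were not called with or without the 2 length-trend libraries.

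The difference between both effects was tested directly as the interaction, what siKEAP1 did in CCNF-depleted cells minus what it did in control cells. At an adjusted p under 0.05 it was called below 0 for 4 of 6 transporters and above 0 for none, with 10.5% and 10.6% of all genes called in these directions. It was -4.14 ± 0.231 for Abcc3 (adjusted p = 3.24e-07), -1.75 ± 0.182 for Abcc4 (adjusted p = 3.41e-05), -0.87 ± 0.17 for Abcc5 (adjusted p = 0.0028) and -0.81 ± 0.142 for Abcb1b (adjusted p = 0.00129). Abcc1 (-0.34 ± 0.183, adjusted p = 0.224) and Abcg2 (0.19 ± 0.0898, adjusted p = 0.164) were not called. Without the 2 length-trend libraries the 4 called values were -4.25, -1.48, -0.62 and -0.68, and all were called, while Abcc1, at -0.161 without siCONTROL replicate 1 alone and -0.07 without both, was called in neither fit. Abcc5 was already higher after siCCNF alone, at 174.1% of siCONTROL. Residual Keap1 was higher in the double depletion than after siKEAP1 alone, at 27.5% against 14.4% of siCONTROL, and its part in the interaction was not tested.

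**Figure D3:**
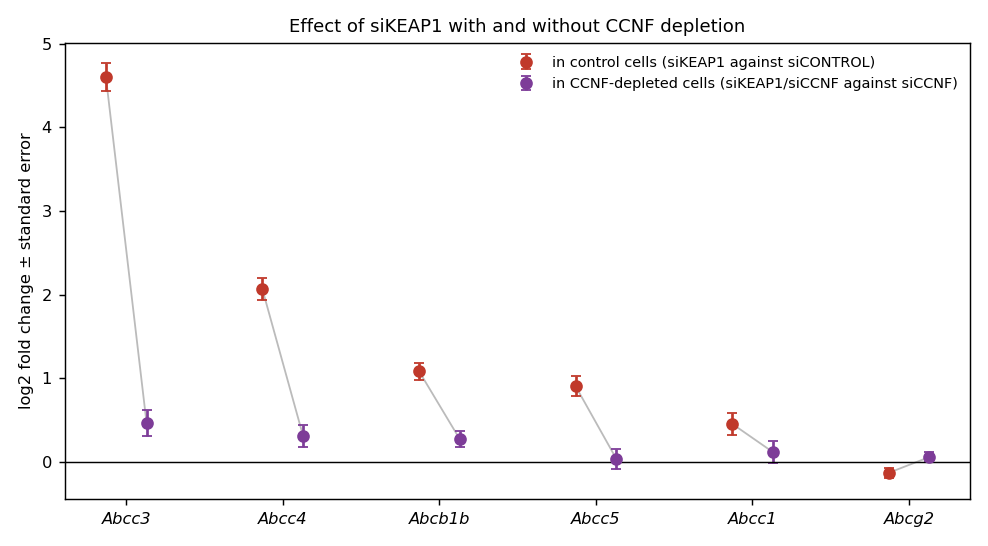
Log2 fold change of the 6 tested transporters for siKEAP1 against siCONTROL (left point of each pair) and siKEAP1/siCCNF against siCCNF (right point). Vertical bars show the standard error. Abcc3 went from 4.60 to 0.46 and Abcc4 from 2.06 to 0.31, and the right points lie between 0.037 and 0.46.

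The summed level of the 8 transporters was 29.3, 39.5 and 38.6 FPKM in siCONTROL replicates 1, 2 and 3, and 74.7, 76.4 and 75.6 FPKM after siKEAP1. It was 47.9, 49.6 and 49.3 FPKM after siCCNF and 58.0, 57.2 and 48.7 FPKM after both. Controls were lowest and siKEAP1 highest, each without overlap with another group. The mean share of Abcc4 in this sum went from 19.6% in siCONTROL to 39% after siKEAP1, 27.6% after siCCNF and 30.6% after both. Abcg2 went from 23.4% in siCONTROL to between 10% and 11.4% in the depleted groups, and Abcc3 from 0.498% to 5.61% after siKEAP1. The sum measures mRNA per length and not transport capacity.

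**Figure D4:**
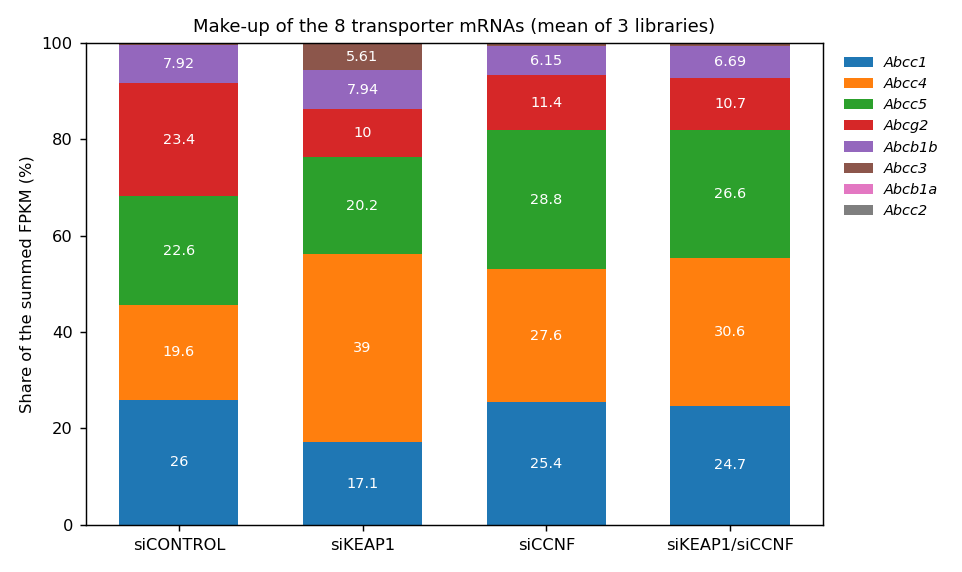
Share of each transporter in the summed FPKM of all 8 (stacked bars, percent, mean of 3 libraries per group). Abcc4 takes 39% after siKEAP1 against 19.6% in siCONTROL, Abcg2 takes 10% against 23.4%, and Abcb1a and Abcc2 are too low to be seen.

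Across the 12 libraries, the log2 CPM of Abcc1 and Abcc5 had a Pearson r of 0.947, that of Abcc3 and Abcb1b 0.941 and that of Abcc4 and Abcb1b 0.897, whereas Abcg2 had r of -0.578 with Abcc5. Among all tested genes, those most like each transporter by this measure were Numa1 and Sipa1l1 for Abcc1 (r = 0.981 and 0.98), Calr3 and Chp1 for Abcc3 (0.988 each), Adh7 and Trp53inp1 for Abcc4 (0.994 and 0.986), Mef2d and Fosl2 for Abcc5 (0.993 and 0.991), Vsp35l and Ap2a2 for Abcg2 (0.989 and 0.988), and Serpinb9 and Adgrg1 for Abcb1b (0.982 and 0.98). These values describe 12 libraries that share 4 conditions and are not a test.

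Genes that work beside the pumps were followed in lists, against medians of -0.012, 0.013 and 0.014 over all genes after siKEAP1, siCCNF and both. Of all genes tested, 20.4%, 22.5% and 20.6% were called higher in these 3 comparisons and 20.2%, 25.5% and 23.6% lower. Counts near these shares, such as those of the transcription factors after siCCNF, are not a result about a list. Of 28 enzymes that make or process their substrates, 24 were tested, and 16 rose and 1 fell after siKEAP1, 5 rose and 9 fell after siCCNF, and 11 rose and 5 fell after both (median log2 fold changes 1.10, -0.189 and 0.201). Ptges, a prostaglandin E synthase, went from 0.521 ± 0.471 CPM (SD, n = 3) to 16.1 ± 2.38 after siKEAP1, 1.69 ± 0.373 after siCCNF and 3.05 ± 0.176 after both. Mgst1, a microsomal glutathione transferase, rose by 4.44 ± 0.168 on the log2 scale after siKEAP1 (adjusted p = 8.68e-10) and by 1.78 ± 0.168 after both (adjusted p = 2.4e-06). Its paralog Mgst2 rose by 3.11 and 0.99 in these comparisons. The low-level glucuronosyltransferase Ugt1a7c went from 0.193 ± 0.125 CPM to 2.06 ± 0.336 after siKEAP1, and its exons can share reads with other Ugt1a genes. The interaction was -2.52 ± 0.23 for Mgst1 (adjusted p = 1.35e-05), so the siKEAP1 effect on this enzyme was smaller in CCNF-depleted cells, yet it was still 1.93 ± 0.161 there (adjusted p = 1.92e-05).

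Among 41 ABC transporters outside the 8, 27 were tested, of which 15 rose and 1 fell after siKEAP1, 6 rose and 5 fell after siCCNF, and 8 rose and 3 fell after both (medians 0.386, 0.06 and 0.181). Abca1, the cholesterol exporter, rose in all 3 comparisons, with log2 fold changes of 2.67, 1.96 and 2.39 (adjusted p = 4.24e-06, 5.04e-05 and 1.05e-05). Abca8b rose by 3.81 ± 0.166 after siKEAP1 (adjusted p = 3.03e-09) and 0.80 ± 0.174 after both (adjusted p = 0.00212), with -0.058 after siCCNF. Abcc12 rose by 2.83 ± 0.538 after siKEAP1 (adjusted p = 9e-04), from a low level of 0.3 ± 0.174 CPM (SD) to 2.13 ± 0.324. Abcb4, a phospholipid exporter related to the P-glycoproteins, was called higher after siKEAP1 (adjusted p = 0.006) at 0.463 CPM against 0.0502, too low for a fold. It was at 0.0184 CPM after siCCNF and 0.163 after both. Abcb4 thus passed the count filter only through its siKEAP1 libraries, and this call is no separate support for a rise. Abca12 and Abca6, also among the 15, were at 0.554 and 0.78 CPM after siKEAP1, against 0.1 and 0.151 in siCONTROL. They were at 0.153 and 0.32 CPM after siCCNF and at 0.103 and 0.265 after both. The count of 15 thus holds low genes that can have entered through the siKEAP1 libraries, and their calls add no separate support. The 4 soluble ABC proteins, which act in translation and not in transport, gave 0 higher and 1 lower after siKEAP1 and 2 higher and 0 lower after each of the other depletions (medians 0.093, 0.173 and 0.193). Abce1, a ribosome recycling factor, rose by 0.67 ± 0.0717 after siCCNF, and Abcf2 fell by 0.33 ± 0.0645 after siKEAP1.

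Of 37 SLC carriers that take up or exchange drugs, 15 were tested, and 8 rose and 1 fell after siKEAP1, and 4 rose and 2 fell after siCCNF and after both (medians 0.389, -0.06 and 0.207). Slc22a23 went from 14.1 ± 4.86 to 182 ± 2.48 CPM after siKEAP1, 20.8 ± 1.15 after siCCNF and 53.2 ± 6.23 after both. Slc22a18 rose by 2.57 ± 0.371 on the log2 scale after siKEAP1 (adjusted p = 0.000102). Slco1a5 was at 0.36 CPM in siCONTROL and rose by 1.30, 2.40 and 2.86 on the log2 scale after siKEAP1, siCCNF and both, and Slco5a1 stood at 0.13, 1.33, 0.825 and 1.22 CPM in siCONTROL and these groups.

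Of 24 transcription factors that can act on efflux genes or on antioxidant response elements, 20 were tested, and 8 rose and 3 fell after siKEAP1, 5 rose and 5 fell after siCCNF, and 7 rose and 4 fell after both (medians 0.102, 0.043 and 0.17). Ahr, the aryl hydrocarbon receptor, had log2 fold changes of 1.94, 1.42 and 1.68 in these comparisons (adjusted p = 1.21e-06, 1.44e-05 and 4.03e-06). Its repressor Ahrr rose by 2.29 ± 0.163 after siCCNF and 2.06 ± 0.163 after both, with -0.012 after siKEAP1. Pparg and Nr1h3, nuclear receptors of lipid metabolism, rose after siKEAP1 by 1.69 ± 0.157 and 2.00 ± 0.219. Neither was called after siCCNF or after both.

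Finally, 10 of 11 genes that hold or recycle pumps at the membrane were tested and gave 4 higher and 4 lower after siKEAP1, 1 higher and 6 lower after siCCNF, and 2 higher and 5 lower after both (medians 0.099, -0.293 and -0.212). Ezr, encoding ezrin, rose by 0.90 ± 0.0863 after siKEAP1 and fell by 0.47 ± 0.0863 after siCCNF. Slc9a3r1, encoding an ezrin-binding scaffold, rose by 1.28 ± 0.112 and fell by 0.77 ± 0.114 in the same comparisons, while its paralog Slc9a3r2 fell by 1.51 ± 0.109 and 0.32 ± 0.102. Msn, encoding moesin, fell in all 3, by 0.29, 0.76 and 0.96 on the log2 scale.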

How the data were processed

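C2C12 libraries were mapped to 4 groups of 3 biological replicates by their labels. The authors deposited 1 table with, per gene and library, a count of reads without normalization and an FPKM value made by their sequencing provider, and with their own fold changes and p-values, which were not used. The submitters' processing notes name HISAT2 and GRCm39, whereas identifiers and coordinates in the table are those of GRCm38 with the GENCODE M21 annotation. The counting tool and its treatment of strand and of shared reads are not given in the sources used here.

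Tests used edgeR 4.0.16 (R 4.3.3) on the counts. The filterByExpr function retained 15122 of 54532 genes, libraries were scaled by TMM, and a quasi-likelihood model of 4 group means was fitted to all 12 libraries. Benjamini-Hochberg adjustment covered every gene tested, with calls at an adjusted p under 0.05. The p-values rest on a spread per gene estimated from the replicates of all 4 groups and drawn toward that of other genes. They do not use the compared groups only. The standard error is the log2 fold change divided by the root of its F statistic. CPM values use the TMM-scaled library size, and log2 CPM used a prior count of 2. Totals per library were 18464209 to 37743198 counts. Exact intervals and floors of 3 counts cover counting error only.

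The members and the gene lists were chosen with earlier results of these data known. Besides the members, Keap1 and Ccnf, the text names up to 4 genes per list with the largest called change against siCONTROL and the 2 genes most correlated with each tested member. Marker genes are given as ranges and as those at 0, and Cd68, Abca6 and Abca12 were chosen after their values were seen. Alternatives were DESeq2 1.42.0, total library sizes, 2 other count filters, a replicate block, limma 3.58.1 on log2(FPKM + 1), fits of the compared groups only, a 2-fold threshold, leaving out each library or both length-trend libraries, and summing Abcb1a and Abcb1b. Removal of the length trend by a spline with 5 degrees of freedom was added after seeing the data.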

Additional observations from a re-analysis of the deposited data

Results flagged for a closer look

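For 4 transporters the effect of siKEAP1 differed between CCNF-depleted and control cells by the interaction test of edgeR, at an adjusted p under 0.05 over all genes. The difference on the log2 scale was -4.14 for Abcc3, -1.755 for Abcc4, -0.868 for Abcc5 and -0.812 for Abcb1b, in each case a smaller effect of siKEAP1 where CCNF was also depleted.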

How the results depend on the processing

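Of 786 values of the members recomputed under the alternatives, 765 kept their direction and their side of the threshold. With a 2-fold threshold the transporters called numbered 3 of 5 for siKEAP1, 0 of 5 for siCCNF, 2 of 6 for both siRNAs, 1 of 4 for both against siKEAP1 and 2 of 4 for the interaction. Both against siCCNF gave 0 to 1 when single libraries were left out (1 without siCONTROL replicate 1, Abcc4), 3 without both length-trend libraries and 2 with the length trend removed. The shares of all genes called in these refits were not counted for this comparison. The 8 reversals were of values that were not called. Abcc5 in both against siKEAP1 ranged from -0.112 to 0.02 when single libraries were left out (0.02 without siKEAP1/siCCNF replicate 3) and became 0.021 without both length-trend libraries and 0.07 with the trend removed. Abcc5 in both against siCCNF ranged from -0.019 to 0.114, and was -0.005 without siCCNF replicate 1 and -0.003 and -0.019 without siKEAP1/siCCNF replicates 1 and 2. Abcb1b after siCCNF ranged from -0.001 without siCONTROL replicate 1 to 0.194, and was -0.003 without both length-trend libraries. Abcc1 after siCCNF was not called in a fit of the compared groups only (0.406, adjusted p = 0.0553), and with the length trend removed Abcg2 was called lower after siKEAP1 (-0.24, adjusted p = 0.0211) and its interaction was called (0.333, adjusted p = 0.039). The cause of these changes was not tested. A replicate block gave 5, 5, 6, 4, 0 and 4 transporters called in the order above, with both against siCCNF before the interaction, and changed no count. Same-numbered libraries had r of deviations from -0.268 to 0.204 over 18 pairs, and 9 of 12 libraries were closer on average to their own number. The labels give a replicate number only, so whether same-numbered libraries were handled together is not known. Abcb1a could be fitted under 7 alternatives and was called higher after siKEAP1 in 5 of them (no count filter, without siCONTROL replicate 2, siKEAP1 replicate 3 or siKEAP1/siCCNF replicate 3, and without both length-trend libraries), with 6 transporters then called higher, and without siCONTROL replicates 1 and 3 it was not called (adjusted p = 0.0781 and 0.082). Abcb1a was called lower in both against siKEAP1 in 2, without siCONTROL replicate 1 or 2. Where a count filter was used, Abcb1a passed it only through siKEAP1 replicates 1 and 2, with 14 and 10 counts. Every other library had 6 counts or fewer. A gene admitted by the group where it is high gives calls that are no separate support for a rise. Depth limits Abcc2 and Abcb1a, which had at most 14 counts in a library.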
